A study of Homo sapiens with 6 samples.

Results

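A set of 10 genes that mark epithelial and luminal identity were followed in MDA-MB-231 cells, an established triple-negative breast cancer line of mesenchymal character, after overexpression of the RNA editing enzyme ADAR1 p110. They were taken by symbol from a table of 60461 genes: the adhesion and junction genes CDH1, EPCAM, CLDN4 and CLDN7, the splicing regulators ESRP1 and ESRP2, the transcription factors SPDEF, ELF3 and GRHL2, and the receptor ERBB3. All 10 were found, and 8 of them were among the 18899 genes with enough reads to be tested, each with at least 207 counts in every library. ESRP1 and GRHL2 were too low to test. The comparison asked whether transcripts of these genes differed between 3 libraries of cells given an adenovirus for ADAR1 p110 and 3 libraries of cells given a GFP virus. Both groups were transduced at a multiplicity of infection of 200, received new medium after 16 h and were extracted after 48 h, so both carry an adenoviral vector. The promoter that drives either insert is not given in the sources used here, and uninfected cells were not analysed here. The replicates are called biological in the labels without further detail, and any p-value here therefore reflects only how far these libraries spread, which may be technical.

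Epithelial cells hold together through E-cadherin and seal the space between them with claudins. Transcription factors of the grainyhead-like and ETS families maintain this state, and the epithelial splicing regulatory proteins direct exon choices that differ between epithelial and mesenchymal cells. Breast cancer cells that resemble mesenchyme usually express little of this programme, and repressors of the ZEB and SNAI families silence CDH1 in many of them.

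Levels in CPM, the usual unit of counts relative to library size, were scaled by the trimmed mean of M values (TMM), and totals ran from 72741235 to 99589278 counts per library. ADAR itself stood at 1006 ± 13.2 CPM in the ADAR1 p110 libraries and 267 ± 8.67 CPM in the GFP libraries (SD, n = 3 each). ADAR1 p110 replicate 1 and GFP replicate 2 stood apart from the other 4 libraries on the second principal component, which carried 21.8% of the variance. Results were therefore also computed without this pair. Because the pair was chosen on these same libraries, leaving it out is not an independent check. The mesenchymal filament gene VIM stood at 1952 ± 57.9 CPM in the GFP libraries, while the hormone receptor genes ESR1 and PGR held 10 and 3 counts over all 6 libraries.

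CDH1, ESRP2 and SPDEF rose with ADAR1 p110, by 1.48-fold, 1.38-fold and 1.21-fold, and none of the 8 tested genes fell (quasi-likelihood test in edgeR, p adjusted by Benjamini-Hochberg over all tested genes and under 0.05). The other 5, EPCAM, CLDN4, CLDN7, ELF3 and ERBB3, did not pass the test. Of all tested genes, 1.95% were called higher and 2.96% lower. With scaling by total counts only, 510 genes were higher and 479 lower in place of 368 and 559, and the same 3 of the 8 genes passed. At an unadjusted p under 0.05, 3 of the 8 were higher and 1, CLDN7, was lower. The share of all tested genes under that unadjusted threshold was not counted. Unadjusted counts here and below therefore have no background beside them. DESeq2 and limma-voom also called 3 higher and 0 lower. The median log2 fold change of the 8 genes was 0.09, beside 0.00 for all tested genes.

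**Figure D1:**
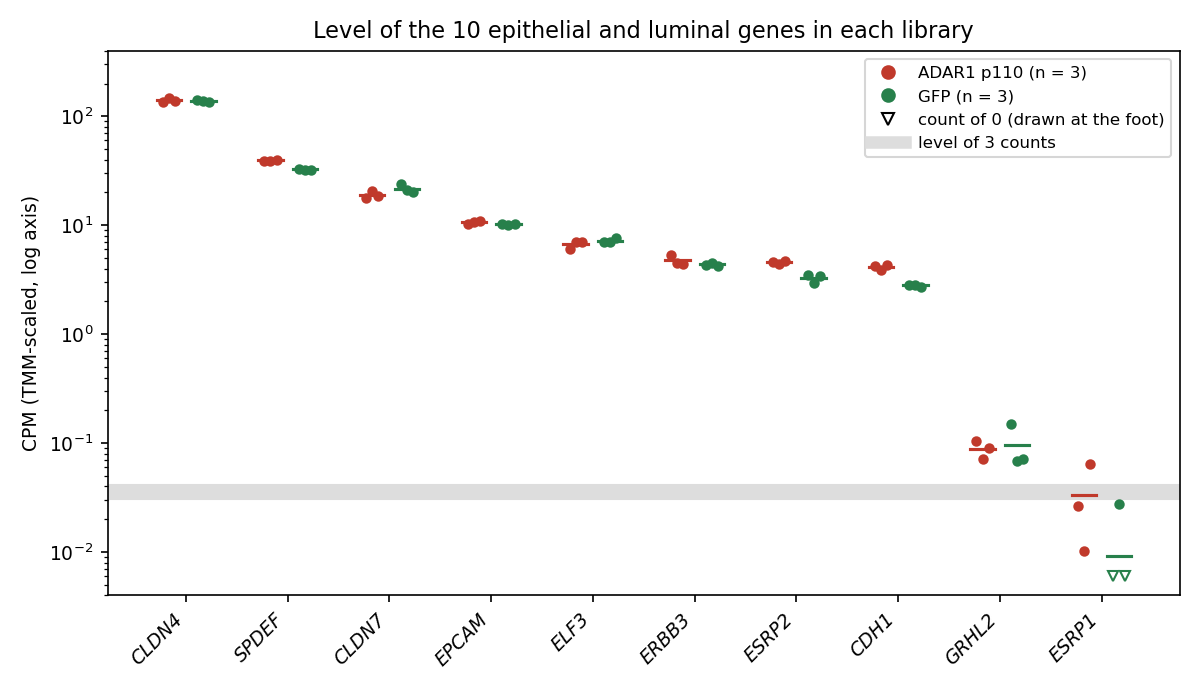
Level of the 10 genes, in CPM on a logarithmic scale, for every ADAR1 p110 (red) and GFP (green) library, with horizontal bars at the group means (n = 3 per group). CLDN4 lies highest, at 138 CPM in the GFP libraries, GRHL2 and ESRP1 lie near or within the grey band that marks the level of 3 counts, and open triangles mark counts of 0.

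CDH1 encodes E-cadherin, the calcium-dependent adhesion molecule of adherens junctions (hg19 chromosome 16, 68771128 to 68869451, plus strand). Its counts were 322, 382 and 335 under ADAR1 p110 (replicates 1, 2 and 3) and 247, 207 and 266 under GFP. These were 4.24, 3.88 and 4.33 CPM against 2.85, 2.85 and 2.70 CPM. Every ADAR1 p110 library lay above every GFP library. The log2 fold change was 0.57 (SE 0.103, 95% interval 0.34 to 0.79, edgeR adjusted p = 0.00966). The adjusted p moved to 0.0504 without ADAR1 p110 replicate 3 and to 0.0506 without GFP replicate 3, with log2 fold changes of 0.54 in each case, and was 0.00938 without the pair that stood apart. An antisense RNA gene within CDH1, AC099314.1, held 0.682% as many counts.

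EPCAM encodes an epithelial cell adhesion molecule that lies along the lateral membrane (chromosome 2, 47572297 to 47614740, plus strand). Its levels were 10.3, 10.6 and 10.9 CPM in the ADAR1 p110 libraries and 10.2, 10.1 and 10.2 CPM in the GFP libraries. The groups did not overlap, but the gap was narrow, and the log2 fold change of 0.06 (SE 0.068, 95% interval -0.09 to 0.21) did not pass (edgeR adjusted p = 0.699). Of all tested genes, 11.8% had all ADAR1 p110 libraries above the GFP libraries and 12.2% had all below. Among the 8 members, 4 had all above and 0 had all below.

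CLDN4 and CLDN7 encode tight junction proteins. CLDN4 (chromosome 7, 73213872 to 73247023, plus strand) was the most abundant of the 10 genes, at 135, 147 and 137 CPM in the ADAR1 p110 libraries and 141, 137 and 136 CPM in the GFP libraries. The groups overlapped, and the 95% interval of the log2 fold change, 0.02, ran from -0.10 to 0.13 (edgeR adjusted p = 0.903). CLDN7 (chromosome 17, 7163222 to 7167302, minus strand) had the lowest estimate. It stood at 17.8, 20.8 and 18.4 CPM with ADAR1 p110 and 23.8, 20.9 and 20.3 CPM with GFP. ADAR1 p110 replicate 2 lay within the GFP range. The log2 fold change of CLDN7 was -0.19 (SE 0.083, 95% interval -0.37 to -0.0036, edgeR adjusted p = 0.261). CLDN7 shares 38 bases with ELP5 on the other strand, which had 136% as many counts and a log2 fold change of 0.01.

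ESRP2 encodes a splicing regulator of epithelial cells (chromosome 16, 68263014 to 68272005, minus strand). Its counts were 350, 431 and 366 under ADAR1 p110 and 301, 215 and 340 under GFP, or 4.61, 4.37 and 4.73 CPM against 3.47, 2.96 and 3.46 CPM. The groups did not overlap, and GFP replicate 2 was the lowest library. The log2 fold change was 0.47 (SE 0.104, 95% interval 0.24 to 0.70, edgeR adjusted p = 0.0270). ESRP2 did not pass in 5 of the 6 fits that left out 1 library, with adjusted p of 0.0671 and 0.109 without ADAR1 p110 replicates 2 and 3 and of 0.0743, 0.0802 and 0.0695 without GFP replicates 1, 2 and 3. It passed without the pair that stood apart (log2 fold change 0.40, adjusted p = 0.0423). That fit called 1181 genes higher and 1424 lower, in place of 368 and 559 with all libraries. ESRP2 shares 149 bases with NFATC3 on the other strand, which had 640% as many counts and a log2 fold change of -0.12 (edgeR adjusted p = 0.421). It also shares 35 bases with AC020978.6 on its own strand, which had 32.8% as many counts and a log2 fold change of 0.15 (adjusted p = 0.716). Whether the counting used strand is not given in the sources used here, and the part of shared reads in the ESRP2 value was not tested.

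ESRP1, the closest relative of ESRP2 and the dominant form in many epithelia, was almost silent. Its counts were 2, 1 and 5 under ADAR1 p110 and 0, 2 and 0 under GFP. The level that 0 counts cannot exclude lay between 0.0304 and 0.0414 CPM across libraries, for counting error alone, and 5 of the 6 libraries held fewer than 3 counts. A difference between the groups was not detectable at this depth. GRHL2, a grainyhead-like factor that activates CDH1 and claudin genes in epithelia, held 8, 7 and 7 counts against 13, 5 and 7, or 0.105, 0.0710 and 0.0905 CPM against 0.150, 0.0689 and 0.0711 CPM. The groups overlapped, and the highest value was in GFP replicate 1. ESRP2 thus stood at 3.30 ± 0.288 CPM in the GFP libraries while ESRP1 stood at 0.00919 ± 0.0159 CPM (SD, n = 3 each).

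ERBB3, a receptor tyrosine kinase that binds neuregulins and signals together with ERBB2 in luminal cells (chromosome 12, 56473641 to 56497289, plus strand), had 5.36, 4.55 and 4.38 CPM in the ADAR1 p110 libraries. Its GFP levels were 4.34, 4.49 and 4.27 CPM. Only ADAR1 p110 replicate 1, one of the pair that stood apart, was high, and the other libraries overlapped. The log2 fold change was 0.12 (95% interval -0.10 to 0.35, edgeR adjusted p = 0.588), and it was 0.03 without that library. Of the ERBB receptors and neuregulins tested, 0 of 5 passed by edgeR, by DESeq2 or by limma-voom, and 0 at an unadjusted p under 0.05. Without the pair of libraries that stood apart, 1 was called lower, beside 1424 of all 19465 genes tested in that fit. With 1.95% of all tested genes called higher and 2.96% lower by edgeR, 0 of 5 does not set these genes apart. EGFR, the most abundant of them, had 235 ± 37.5 against 256 ± 21.7 CPM (SD, n = 3 each).

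SPDEF and ELF3 encode ETS-family transcription factors of luminal and glandular epithelium. SPDEF (chromosome 6, 34505579 to 34524110, minus strand) had 39.1, 39.1 and 40.0 CPM in the ADAR1 p110 libraries and 33.0, 32.4 and 32.2 CPM in the GFP libraries. The groups lay well apart, and the spread within each was small. The log2 fold change was 0.28 (SE 0.052, 95% interval 0.16 to 0.39, edgeR adjusted p = 0.0112). The adjusted p was 0.0653 without ADAR1 p110 replicate 3, 0.0526 without GFP replicate 1 and 0.0664 without GFP replicate 3. ELF3 (chromosome 1, 201977073 to 201986316, plus strand) had 6.00, 7.08 and 7.09 CPM with ADAR1 p110 and 7.05, 7.02 and 7.56 CPM with GFP. ADAR1 p110 replicate 1 was the low library, and the groups overlapped. ELF3 did not pass (log2 fold change -0.10, 95% interval -0.30 to 0.10, edgeR adjusted p = 0.629). ELF3-AS1, on the other strand of ELF3, had 7.18% as many counts.

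Upstream sequence in the RefSeq promoter table (GRCh38.p14) was matched by symbol for 4 of the 10 genes, SPDEF, ELF3, CLDN4 and CLDN7, and each of the 4 was found once in GRCh37 by exact match. The entries not matched were CDH1, EPCAM, ESRP1, ESRP2, ERBB3 and GRHL2. The 250 bases before the RefSeq start site are shown for SPDEF, the called gene with an entry, and for ELF3, which belongs to the same family and was not called. They lie at chr6:34524107-34524356 on the minus strand and chr1:201979465-201979714 on the plus strand (GRCh37) and are written 5′ to 3′. Capitals mark the E-box CAGGTG, or CACCTG as read on the other strand, the element bound by ZEB and SNAI repressors.
SPDEF: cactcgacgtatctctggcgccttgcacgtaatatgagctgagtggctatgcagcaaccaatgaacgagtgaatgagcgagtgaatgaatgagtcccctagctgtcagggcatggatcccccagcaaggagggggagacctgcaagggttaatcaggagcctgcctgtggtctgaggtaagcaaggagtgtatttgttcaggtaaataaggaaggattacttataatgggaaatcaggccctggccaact
ELF3: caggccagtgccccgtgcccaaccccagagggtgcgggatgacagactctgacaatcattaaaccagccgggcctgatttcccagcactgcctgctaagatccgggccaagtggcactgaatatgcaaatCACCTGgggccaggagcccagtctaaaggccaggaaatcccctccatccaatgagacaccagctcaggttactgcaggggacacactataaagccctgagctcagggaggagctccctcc

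Of the 4 windows, ELF3 alone held this E-box, beginning 120 bases before the start site, and 17.5% of the 35116 promoter windows of 250 bases in the table held one on either strand. None of the 4 held the grainyhead-like sequence AACCGGTT, present in 0.117% of all windows, or the ETS sequence CGGAAG, present in 16.5%. Each was searched on both strands as these exact letters only, so other forms of either element were not searched. These matches describe letters, not binding. The deposited CLDN4 gene begins 31454 bases before the RefSeq start site and that of ELF3 2642 bases before it.

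**Figure D2:**
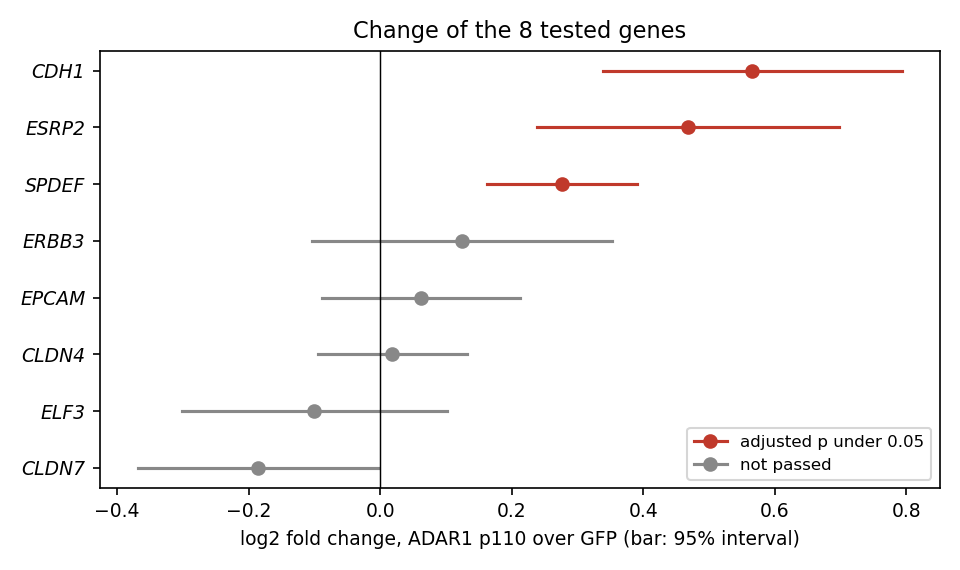
ADAR1 p110 relative to GFP, as log2 fold change, for the 8 tested genes with 95% intervals. CDH1, ESRP2 and SPDEF (red) lie above 0, at 0.57, 0.47 and 0.28, and the other 5 (grey) did not pass the test.

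Levels between genes were compared as CPM per kilobase of the deposited gene length, which is RPKM. In the GFP libraries the order was CLDN4 (29.4), SPDEF (17), CLDN7 (8.69), EPCAM (4.04), ELF3 (1.00), ESRP2 (0.592), ERBB3 (0.505), CDH1 (0.453), GRHL2 (0.0159) and ESRP1 (0.00189). No pair of neighbours in this order overlapped between libraries. With ADAR1 p110, CDH1 at 0.672 ± 0.0390 RPKM stood above ERBB3 at 0.550 ± 0.0602 RPKM, the reverse of their GFP order, while ELF3 overlapped ESRP2 and GRHL2 overlapped ESRP1. CLDN4 and SPDEF lay at the 88.9th and 79.6th percentile of tested protein-coding genes by GFP RPKM, and CDH1, ERBB3 and ESRP2 at the 17.3rd, 18.1st and 19.3rd. The called genes thus included 2 of the 3 lowest tested members and the second most abundant.

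The 3 called genes lost their calls unevenly when settings were changed. CDH1 passed in 12 of the 14 alternatives, SPDEF in 10 and ESRP2 in 8, and each kept its direction in all of them. The smallest log2 fold changes over the alternatives were 0.54 for CDH1, 0.27 for SPDEF and 0.40 for ESRP2. Leaving out ADAR1 p110 replicates 1, 2 and 3 in turn left 3, 2 and 0 members called higher, and leaving out GFP replicates 1, 2 and 3 left 1, 2 and 0.

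**Figure D3:**
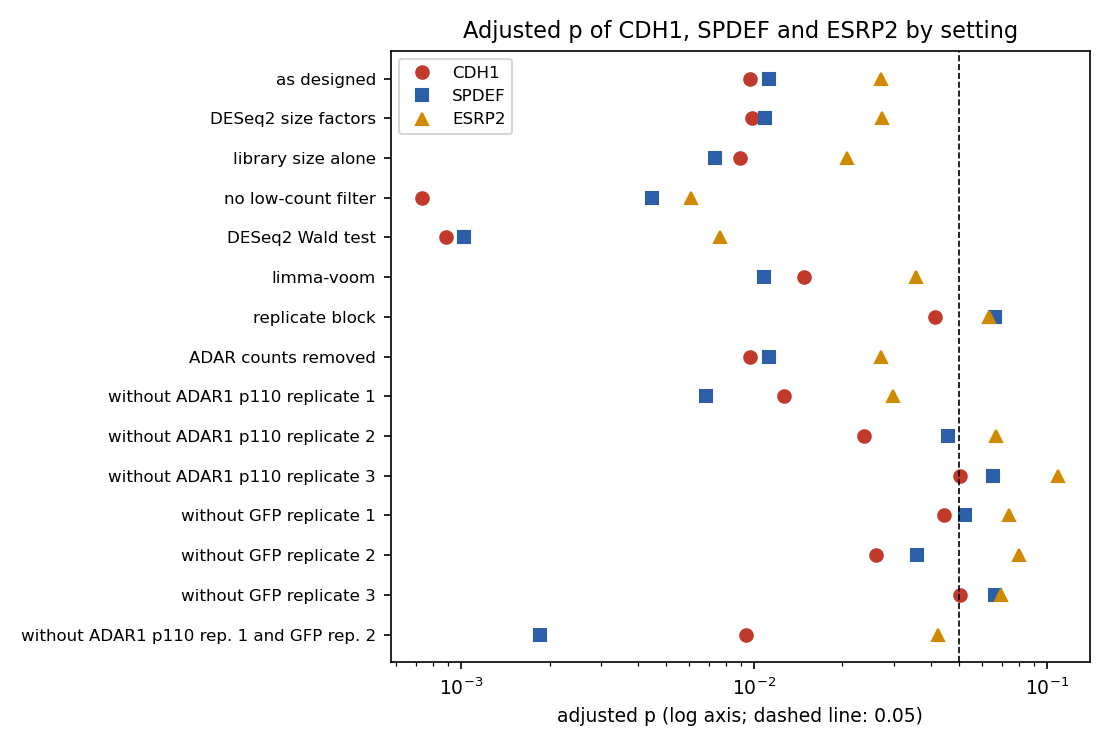
Adjusted p of CDH1, SPDEF and ESRP2 under the design as planned and the 14 alternatives (log axis), with the threshold of 0.05 as a dashed line. The points right of the line are fits that left out 1 library or used the replicate number as a block, the farthest being ESRP2 at 0.109 without ADAR1 p110 replicate 3.

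ESRP2 and CDH1 lie 499122 bases apart on chromosome 16, a closeness noticed after their values were seen. Of the 27 other protein-coding genes tested from 500000 bases before ESRP2 to 500000 bases after CDH1, 0 were called higher or lower by edgeR, and DESeq2 and limma-voom also called 0. At an unadjusted p under 0.05, 1 was higher and 3 were lower. Without the pair of libraries that stood apart, 1 was called higher and 2 lower, beside 1181 and 1424 of all 19465 genes tested. In the fit as designed, 1.95% of all tested genes were called higher and 2.96% lower. The median log2 fold change of the 27 was -0.04. PDF had the highest estimate, 0.88 (SE 0.314, edgeR adjusted p = 0.158), with overlapping groups of 2.62, 6.00 and 4.35 against 1.33, 3.05 and 2.75 CPM. CDH3, which encodes P-cadherin and lies next to CDH1, had 0.461 ± 0.171 against 0.648 ± 0.112 CPM (SD, n = 3 each), and its groups overlapped.

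**Figure D4:**
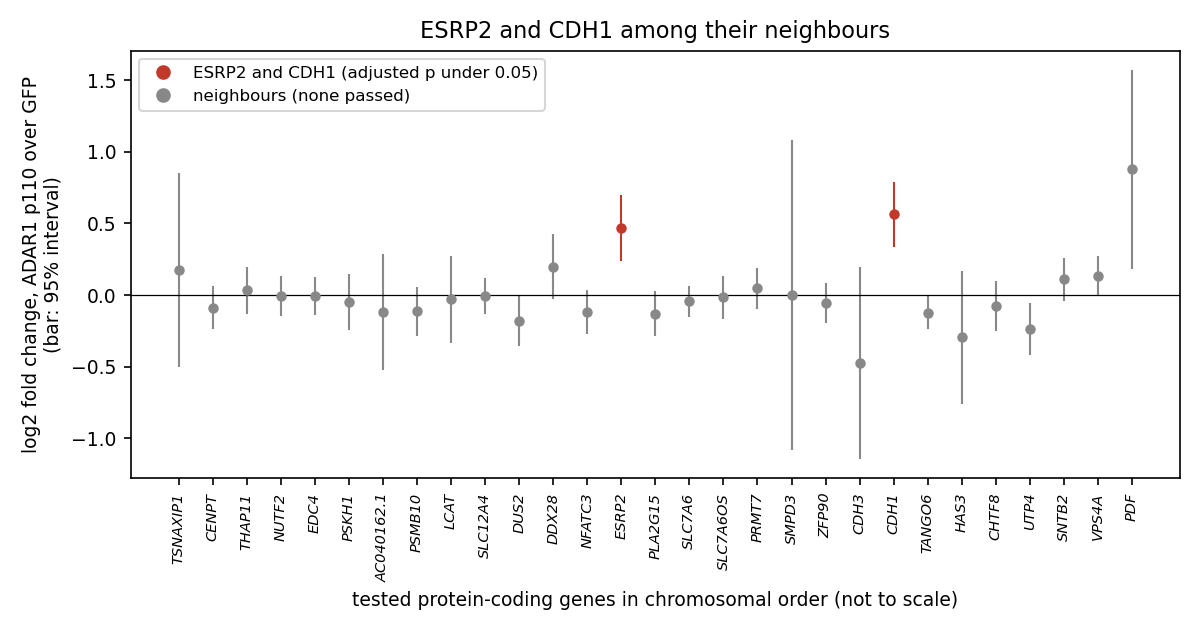
Log2 fold change with 95% intervals of tested protein-coding genes in their order along chromosome 16, from 500000 bases before ESRP2 to 500000 bases after CDH1. ESRP2 at 0.47 and CDH1 at 0.57 (red) are the called genes. None of the neighbours (grey) passed, and PDF, which lies higher at 0.88, has a wide interval.

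Other epithelial genes moved in both directions. Of 57 tested genes in lists of junctions, surface and polarity, transcription factors, simple keratins and luminal breast genes, 6 rose and 4 fell. That is 10.5% and 7.02%, beside the 1.95% and 2.96% of all tested genes. Among tested protein-coding genes alone, 2.43% were called higher and 3.86% lower. The median log2 fold change of the 57 was 0.00. The number called higher fell to 3 when ADAR1 p110 replicate 2 or 3 or GFP replicate 1 or 3 was left out, with 3 lower each time, and rose to 11, with 6 lower, when ADAR1 p110 replicate 1 was left out. The DESeq2 Wald test called 10 of these genes higher and 4 lower, beside 591 and 711 of all 18899 tested. Leaving out the pair of libraries that stood apart gave 12 and 7 of 59, beside 1181 and 1424 of all 19465 genes tested in that fit.

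Junction genes were split, with 2 higher and 2 lower of 22. That is 9.09% each way, beside 1.95% higher and 2.96% lower of all tested genes. JUP, which encodes plakoglobin of desmosomes and adherens junctions, fell from 31.1, 30.4 and 31.9 CPM in the GFP libraries to 23.7, 21.3 and 21.8 CPM (log2 fold change -0.48, edgeR adjusted p = 0.00113). CGN, encoding the tight junction protein cingulin, fell by 0.43 on the log2 scale, and its call was lost without ADAR1 p110 replicate 2 (adjusted p = 0.0641) or 3 (0.111) or GFP replicate 1 (0.136) or 3 (0.0613). PPL, encoding periplakin, rose from 12.9, 12.8 and 14.01 to 17.2, 17.1 and 17.2 CPM, and its call was lost without GFP replicate 1 (adjusted p = 0.0543). LLGL2, a polarity gene, rose by 0.42 on the log2 scale, and its call was lost without ADAR1 p110 replicate 2 (0.0797) or 3 (0.112) or GFP replicate 2 (0.0915) or 3 (0.132). JUP, whose product binds E-cadherin, was thus lower while CDH1 was higher.

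Surface and polarity genes gave 3 higher and 1 lower of 16. That is 18.8% and 6.25%, beside 1.95% and 2.96% of all tested genes. SPINT2 and SPINT1 encode related inhibitors of serine proteases at the epithelial surface, and they moved apart. SPINT2 rose from 185, 185 and 191 to 224, 234 and 231 CPM (log2 fold change 0.30, edgeR adjusted p = 0.00427), while SPINT1 fell from 6.46, 6.31 and 5.80 to 3.79, 3.85 and 4.54 CPM (log2 fold change -0.61, adjusted p = 0.00606). MAL2, which acts in transport to the apical membrane, rose by 0.42 on the log2 scale.

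Among transcription factors, 1 of 6 fell and none rose by edgeR, DESeq2 or limma-voom, or at an unadjusted p under 0.05. In so short a list, 1 call is 16.7%, beside 2.96% of all tested genes called lower and 1.95% higher by edgeR. EHF, an ETS factor of epithelia related to ELF3, fell from 158, 159 and 160 CPM to 125, 116 and 119 CPM (edgeR adjusted p = 0.000792, log2 fold change -0.41, SE 0.049). EHF and SPDEF, both ETS genes, thus moved in opposite directions, and the difference between them was not tested. The simple keratin genes KRT7, KRT8, KRT18 and KRT19 each had all ADAR1 p110 libraries above the GFP libraries. Of all tested genes, 11.8% did. Only KRT7 passed by edgeR, from 528, 471 and 521 CPM to 565, 684 and 636 CPM (log2 fold change 0.31, adjusted p = 0.0354), and 3 passed by DESeq2. The KRT7 call was lost in every fit that left out 1 library except that without ADAR1 p110 replicate 1, with adjusted p of 0.140 and 0.122 without ADAR1 p110 replicates 2 and 3 and of 0.0825, 0.103 and 0.0953 without GFP replicates 1, 2 and 3. The summed keratin level was lowest, within each group, in ADAR1 p110 replicate 1 (2604 CPM) and GFP replicate 2 (2248 CPM), the pair that stood apart.

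Of 9 luminal breast genes tested, 0 were called by edgeR, DESeq2 or limma-voom. With 1.95% of all tested genes called higher and 2.96% lower by edgeR, 0 of 9 does not set this list apart. At an unadjusted p under 0.05, 2 were higher and 1 lower. Without the pair of libraries that stood apart, 1 was called each way, beside 1181 higher and 1424 lower of all 19465 genes tested. XBP1, a transcription factor of secretory cells and the most abundant of the list, had 102 ± 9.11 against 103 ± 2.83 CPM (SD, n = 3 each). GATA3, the master factor of the luminal lineage and outside the naming rule, had 3.61 ± 0.509 against 3.54 ± 0.201 CPM.

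**Figure D5:**
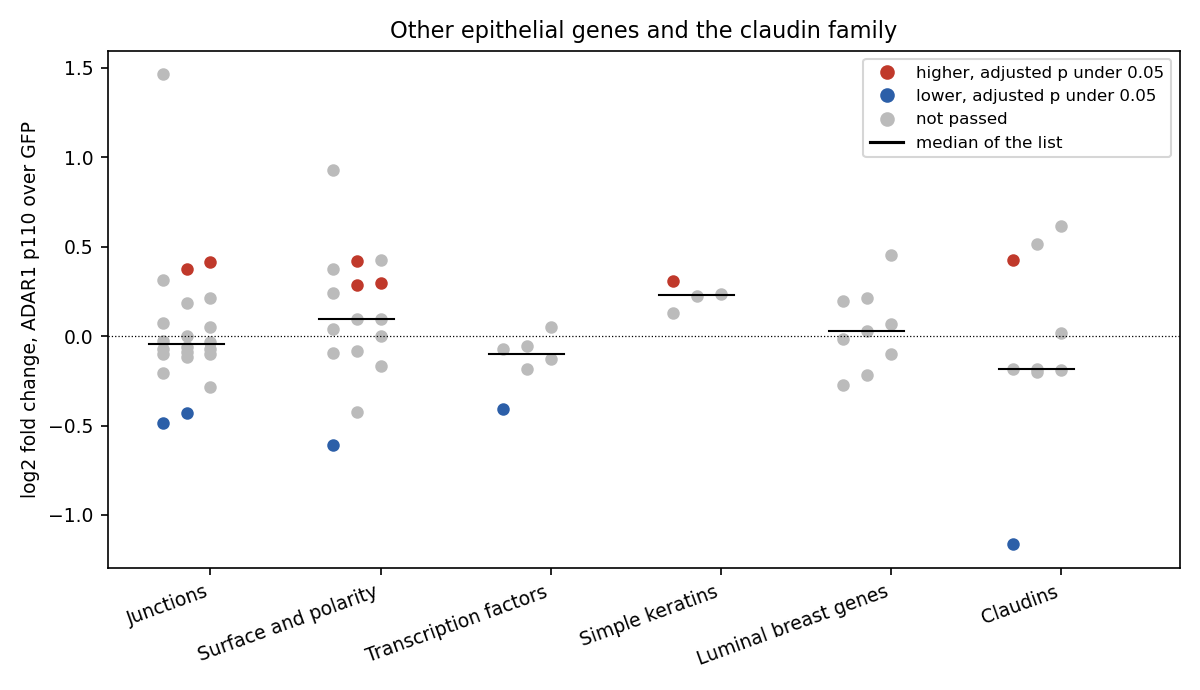
ADAR1 p110 relative to GFP, as log2 fold change, for each tested gene of 5 epithelial lists and the claudin family, with called genes in red (higher) and blue (lower), others in grey and a bar at the median. Called genes lie on both sides of 0 among junction, surface and claudin genes, and the 2 highest grey points are CRB3 and EPN3, which did not pass.

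Of 24 claudin genes, 9 were tested, CLDN4 and CLDN7 included. CLDN1 fell and CLDN2, which forms cation-selective pores, rose. In so short a list, 1 call each way is 11.1%, beside 1.95% higher and 2.96% lower of all tested genes. CLDN1 went from 5.47, 6.44 and 6.80 CPM in the GFP libraries to 3.09, 2.46 and 2.83 CPM, a 2.24-fold lower level (log2 fold change -1.16, SE 0.121, edgeR adjusted p = 0.000301). CLDN2 went from 6.36, 5.72 and 6.403 to 7.63, 8.57 and 8.60 CPM (log2 fold change 0.42, adjusted p = 0.0193), and its call was lost in each fit that left out 1 library except that without ADAR1 p110 replicate 1. Those adjusted p ran from 0.0581 to 0.0893. CLDN4 was the most abundant claudin per length among those named here.

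Of 8 tested repressors of the epithelial state, 0 passed by edgeR, DESeq2 or limma-voom. With 1.95% of all tested genes called higher and 2.96% lower by edgeR, 0 of 8 does not set this list apart. Of the 8, ZEB1 alone was lower at an unadjusted p under 0.05. ZEB1, which represses CDH1 and was the most abundant of them, had 88.3, 87.2 and 87.1 CPM in the ADAR1 p110 libraries and 93.1, 96.6 and 93.2 CPM in the GFP libraries. The groups did not overlap, but the log2 fold change of -0.11 did not pass (SE 0.047, edgeR adjusted p = 0.259). TWIST1 and TWIST2 had 0 counts in every library.

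Markers of other cells were examined beside these results. Over all tested genes, edgeR called 1.95% higher and 2.96% lower, so a count of 0 in such short lists says little. Of 10 leukocyte genes, 4 were tested and 0 passed by edgeR, with 1 higher and 1 lower at an unadjusted p under 0.05 and 0 called by DESeq2 or limma-voom. CD3E, MS4A1 and NKG7 were at 0 in all libraries, and the summed level was 10.4 to 11.1 CPM with ADAR1 p110 and 11.6 to 13.98 CPM with GFP. CSF1R was the most abundant, at 6.20 ± 0.701 against 7.72 ± 0.681 CPM. Of 9 fibroblast genes, 5 were tested and 0 passed by edgeR, with 1 higher and 1 lower at an unadjusted p under 0.05 and 1 called lower by both other tools. The summed level was 63.1 to 70.5 against 65.4 to 71.5 CPM, most of it PDGFRB at 34.2 ± 2.21 against 35.5 ± 1.83 CPM. Of 7 endothelial genes matched, 5 were tested and 1 fell. It was KDR, at 7.39 ± 0.274 against 10.1 ± 0.410 CPM, and the summed level was 76.4 to 79.3 against 79.9 to 88.3 CPM. Of 8 genes of the cell line used to package adenovirus, NEFM, PAX2 and CRABP1 were at 0, and only GAL, at 0.843 ± 0.0958 against 0.887 ± 0.146 CPM, had enough counts to test. The summed level of that list was 0.970 to 1.12 against 1.12 to 1.32 CPM. The summed levels of the leukocyte and endothelial lists were thus lower with ADAR1 p110, but single genes went both ways. Estimates were higher for 2 and lower for 2 tested leukocyte genes, and higher for 2 and lower for 3 endothelial ones. The leukocyte gene LYZ had 1.15 ± 0.121 against 0.781 ± 0.137 CPM, without overlap (log2 fold change 0.57, edgeR adjusted p = 0.161). The part of such cells in the results for CDH1, ESRP2 and SPDEF was not tested. In bulk libraries, a change in the number of cells that express a gene and a change in RNA per cell cannot be told apart.

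The genes whose log2 CPM over the 6 libraries was most like that of CDH1, among 11832 protein-coding genes outside the lists with a mean of at least 1 CPM, were TPRN, DEK and STK35, with Pearson correlations of 0.998, 0.996 and 0.995. With 6 points in 2 groups, these values mainly describe a difference between the groups with little spread within them. TPRN had 15.0, 14.5 and 15.4 CPM with ADAR1 p110 and 12.02, 12.1 and 11.9 CPM with GFP. TPRN and STK35 were called higher (log2 fold changes 0.32 and 0.30), and DEK was not (0.16, edgeR adjusted p = 0.0688).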

How the data were processed

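Total RNA of 6 libraries, 3 per group, was sequenced after stranded library construction, per the labels' protocols. Per the submitters' processing notes, the authors used STAR 2.5.2a (build hg19), featureCounts 1.5.1, R 3.1 and DESeq2 1.4.5. The deposited values are unnormalised read counts of each gene, all whole numbers. Nothing in the sources used here says how strand, multiple alignments or duplicates were handled.

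Groups and replicate numbers came from sample titles. Genes were kept by filterByExpr of edgeR 4.0.16 (minimum count 10), scaled by TMM and tested by quasi-likelihood (glmQLFit, glmQLFTest; R 4.3.3) in a model of group alone, and p-values were adjusted by Benjamini-Hochberg over 18899 genes, and under 0.05 was called. An SE is the log2 fold change divided by the root of the F statistic, and 95% intervals use the t distribution with edgeR's degrees of freedom. The biological coefficient of variation was 8.00%. DESeq2 1.42.0 and limma-voom (limma 3.58.1) were alternatives. These and edgeR, in the model of group alone, were run on simulated counts. The simulated counts held no shift shared by libraries, such as that of the pair that stood apart, and other settings were not simulated. Replicates differed by more than sampling noise (chi-square of 8.64 to 39.7 per degree of freedom).

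The 10 genes and all lists were chosen with earlier results of these data known. The naming rule took the 10 genes, ADAR, up to 4 called genes per list by smallest p or else its most abundant gene, genes overlapping a member, and the 3 genes most like CDH1. Overlapping genes with too few reads to test are not all named. Some called genes of the lists are counted but not reported here. Other names were picked after their values were seen, namely VIM, ESR1, PGR, GATA3, CDH3, LYZ, the remaining keratins, CRB3, EPN3, PDF and markers at 0. PECAM1 was not matched, and a noncoding row carrying the symbol MAL2 was left out. Figures were drawn with matplotlib 3.10.9.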

Additional observations from a re-analysis of the deposited data

How the results depend on the processing

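CDH1, SPDEF and ESRP2 were higher with ADAR1 p110 under all 14 alternatives, and EPCAM, CLDN7, ELF3 and ERBB3 kept their direction and stayed uncalled in all of them. CLDN4, never called, ran from -0.0156 (without ADAR1 p110 replicate 2) to 0.0410 over the fits that left out 1 library. No member was called lower in any alternative. Leaving out 1 library gave 0 to 3 members called higher, 3 to 11 other epithelial genes higher, and 100 to 795 higher and 296 to 1017 lower genes in all. With both ADAR1 p110 replicate 1 and GFP replicate 2 left out, these were 3, 12, 1181 and 1424, with 7 other epithelial genes lower. The DESeq2 Wald test gave 591 higher genes and 10 other epithelial genes higher, and no low-count filter gave 742 and 11. The cause of these differences was not tested. The fits that left libraries out also had fewer of them, and their calls went both up and down.

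The replicate number as a block called 175 genes higher and 333 lower, 4 other epithelial genes each way, and 1 member, CDH1 (adjusted p = 0.0415), with SPDEF at 0.0664 and ESRP2 at 0.0635. Deviations of same-numbered libraries had correlations of -0.109, -0.0296 and 0.0433 for numbers 1, 2 and 3. Those of differently numbered libraries ran from -0.143 to 0.161, the highest for ADAR1 p110 replicate 1 with GFP replicate 2. With 3 libraries per group, these values cannot settle whether any libraries were prepared together. Among the 10 genes, ESRP1 and GRHL2 alone had too few reads to test.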

Other observations

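Mesenchymal and basal genes were read beside the epithelial ones. Of 13 mesenchymal markers tested, 2 rose and 1 fell, beside 1.95% and 2.96% of all tested genes. S100A4 and CAV1 rose by 0.24 and 0.20 on the log2 scale (adjusted p = 0.0328 and 0.0378), and both calls were lost in each fit that left out 1 library except that without ADAR1 p110 replicate 1, with adjusted p up to 0.128 for S100A4 and from 0.0996 to 0.127 for CAV1. With both ADAR1 p110 replicate 1 and GFP replicate 2 left out, 3 rose and 4 fell, beside 1181 and 1424 of all 19465 genes tested. Of 4 basal genes tested, 0 passed by edgeR, DESeq2 or limma-voom or at an unadjusted p under 0.05, and 1 was called lower without that pair.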
